A study of Homo sapiens with 16 samples.

Results

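The transcripts of 9 target genes of p53 were followed in glioblastoma cells that received an miR-137 mimic, together with MDM4, an inhibitor of p53. The 9 genes are MDM2, CDKN1A, BTG2, BBC3, TP53INP1, TP53I3, RRM2B, SESN1 and GDF15, chosen by symbol as established targets of p53, with earlier results of these data known. All 9 were present among the 20626 genes measured in U343 cells and 8 of them among the 20314 genes measured in U251 cells, where CDKN1A was not analysed here. U251 and U343 are established human glioblastoma lines, and each was transfected for 48 hours with miR-137 mimic or with control mimic at 25 nM. From each transfection, total RNA (RNASeq) and RNA co-precipitated with antibodies against poly(A)-binding protein (PABP; RIPSeq) were sequenced after removal of ribosomal RNA. The 16 libraries form 4 experiments, each with 2 control and 2 miR-137 libraries, and the comparison asks which transcripts change in amount or in PABP-bound amount upon transfection. The labels number the libraries as replicates but do not say that they came from separate cultures, so the p-values below measure the spread between libraries, which may be technical.

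p53 is a transcription factor that is kept low by MDM2, a ubiquitin ligase whose gene p53 itself activates, and that is held inactive by the related MDM4. When DNA damage or other stress releases p53, it binds response elements made of a pair of 10-base elements and raises genes for cell-cycle arrest, apoptosis, DNA repair and metabolic control. The pathway is among the most often altered in glioblastoma.

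The mature sequence of miR-137 and the matches to the p53 element near the start sites are shown first. The mature strand hsa-miR-137-3p has 23 bases, encoded at chr1:98046091-98046113 on the minus strand (RefSeq, GRCh38.p14). The sequence of the transfected mimic itself was not available here. The capitals mark the seed, bases 2 to 8, with which a microRNA chiefly pairs to its targets.
hsa-miR-137-3p: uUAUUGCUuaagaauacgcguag

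Promoter windows of 300 bases, from 250 bases before to 50 after a start annotated by RefSeq, were available here for 7 of the 9 genes (12 windows). Windows of TP53INP1 and RRM2B were not available and were not searched. Each window was searched for the p53 consensus response element, a pair of adjacent 10-base elements without spacer, with at most 3 mismatches in 20 bases and the core C and G of each element intact. The element is palindromic, so a single search covers both strands. Such a match was present near MDM2, SESN1 and GDF15, against 1.1% of all 35116 windows and 1.4% of the 27305 genes that have one. The match at MDM2 had 2 mismatches and began 94 bases before an annotated start, that at SESN1 had 3 and began 49 bases before, and that at GDF15 had 3 and began 28 bases after. In the following lines the capitals mark the 20-base match, for MDM2 within chr12:68808918-68808947 (plus strand), for SESN1 within chr6:109009013-109009042 (minus strand) and for GDF15 within chr19:18386181-18386207 (plus strand), all in GRCh38.p14.
MDM2: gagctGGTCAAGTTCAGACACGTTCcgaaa
SESN1: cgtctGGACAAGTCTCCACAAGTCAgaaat
GDF15: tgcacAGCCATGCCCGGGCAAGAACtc
No match lay in the windows of CDKN1A, BBC3, BTG2 or TP53I3, whose functional elements can lie elsewhere. A match is a description of letters and was not tested for binding.

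Depth ranged from 10156675 counted reads per library in U251 total RNA to 45134766 in U343 total RNA. U251 libraries were primed with random hexamers and U343 libraries were made with the TotalScript kit, so cell line and library kit cannot be told apart in any difference of level between the lines. Of the glioma markers, vimentin stood at 3631 CPM (the read count of a gene scaled by library size) or more in every library, and SOX2, nestin and CD44 were present in all. GFAP ranged from 3145 to 7370 CPM in U343 but from 3.64 to 29.5 CPM in U251, and OLIG2 stayed below 1 CPM in both lines. In U251, S100B reached at most 1.60 CPM and CHI3L1 at most 0.77 CPM. The glioma markers moved with miR-137 in U251 total RNA, where 5 of the 6 tested fell and 0 rose (median −1.22) and 29.0% of all genes fell. Their summed level went from 12139 and 12514 CPM to 5813 and 6073 CPM, and the highest gene alone held 7666 and 8713 CPM in the controls. In U343 total RNA 2 of 7 rose and 0 fell (median 0.34), and in U343 PABP-bound RNA 1 rose and 1 fell. Over all genes 8.31% and 28.5% rose there. The part of the glioma markers in the changes of the p53 targets was not tested. Of 9 markers of other cell types, the leukocyte marker PTPRC, the epithelial EPCAM and the hepatocyte ALB stayed below 1 CPM in every library. The epithelial keratin KRT18 ranged from 77.7 to 203 CPM and the neuronal SYT1 from 11.4 to 32.3 CPM in U251, and the endothelial CDH5 from 7.58 to 30.9 CPM in U343. PECAM1, also an endothelial marker, reached at most 1.54 CPM in U343 and 0.76 CPM in U251. The oligodendrocyte marker MBP reached at most 4.35 CPM in U343 and 1.34 CPM in U251. The lysosomal and macrophage marker CD68 moved with miR-137, from 9.06 to 83.1 CPM in U251 total RNA and from 3.25 to 101 CPM in U343 PABP-bound RNA. The summed CPM of the 9 markers ran from 19.3 to 232 over the 16 libraries.

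In 2 experiments libraries stood apart. In U343 total RNA, the first miR-137 library held 284 summed CPM of 12 interferon-induced genes, like its controls at 314 and 310, whereas the second held 13036 CPM and the miR-137 libraries of the other experiments between 12573 and 15155. In U251 PABP-bound RNA the 2 control libraries differed from each other, for instance at 39.8 and 115 CPM for MDM2. For the p53 targets, values without these libraries are given where the call, the direction or the size depends on them. In bulk RNA, fewer cells expressing a gene and less RNA per cell cannot be told apart.

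Of the p53 targets, 2 rose and 3 fell in U251 total RNA, none passed in U251 PABP-bound RNA, 1 fell in U343 total RNA, and 3 rose and 2 fell in U343 PABP-bound RNA (edgeR, adjusted p under 0.05). RRM2B fell in 3 of the 4 experiments and BBC3 rose in 2. In U251 total RNA, BBC3 had 4 and 8 control reads and entered the test only through its miR-137 libraries. The share of all genes past the same threshold was 57.7% in U251 total RNA, where 5 of 8 targets passed, and 56.3% in U343 PABP-bound RNA, where 5 of 9 passed. Of the calls in U251 total RNA 49.8% were higher, or 60.5% with upper-quartile normalization, which raised the median of all genes by 0.14 log2 units. The share past the threshold was 20.0% in U343 total RNA, where 1 of 9 passed. These member counts are near their backgrounds and show nothing particular about p53 targets as a group. For U251 PABP-bound RNA, 1.21% of genes passed, none of the 8 targets did with edgeR, 2 were at an unadjusted p under 0.05 (BBC3 and BTG2), and DESeq2 called those 2. Directions there depended on which control library was used: without the first or second, RRM2B changed by −1.86 or 0.40. Without the first miR-137 library of U343 total RNA, TP53INP1 went from −0.28 to −1.26 and CDKN1A from 0.67 to 0.12. The median log2 fold change of the targets was −0.20 in U251 total RNA, −0.34 in U251 PABP-bound RNA, 0.02 in U343 total RNA and 0.07 in U343 PABP-bound RNA, against 0.02, −0.02, 0.02 and 0.00 over all genes tested.

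**Figure D1:**
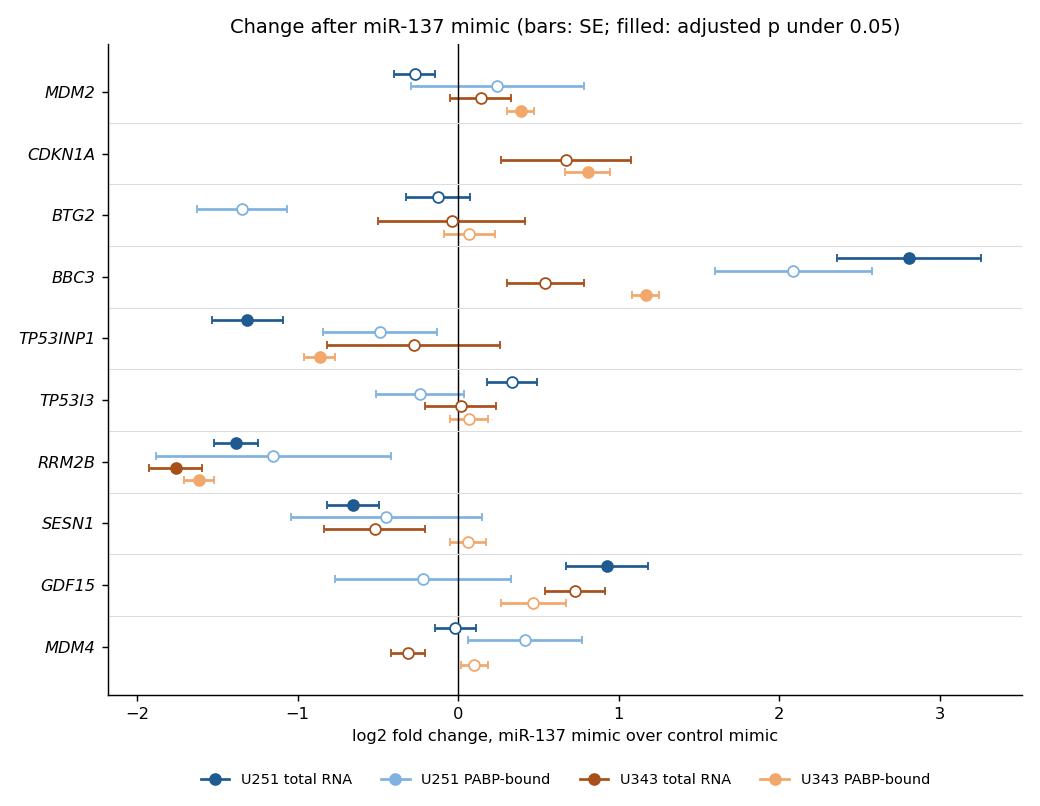
Log2 fold change of miR-137 over control libraries (horizontal axis) for the 9 p53 targets and MDM4 in the 4 experiments, with standard errors as bars and filled points for an adjusted p under 0.05 in edgeR. RRM2B lies left of 0 in every experiment and BBC3 right of 0, while the bars of U251 PABP-bound RNA are the widest for most genes. CDKN1A has no points for U251, where it was not analysed here.

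MDM2, the feedback inhibitor of p53 (hg18 chr12:67488238-67525478), rose 1.31-fold in U343 PABP-bound RNA, from 81.6 and 75.7 CPM in the control libraries to 104 and 102 CPM with miR-137 (log2 fold change 0.39 ± 0.08 SE, edgeR adjusted p = 0.0048). The groups did not overlap, but with the 8 U343 libraries fitted jointly the adjusted p was 0.0885. For U343 total RNA, the levels were 186 and 137.4 CPM against 195 and 161 CPM, and the groups overlapped (0.14 ± 0.19, adjusted p = 0.642). In total RNA of U251 the control libraries held 305 and 309 CPM and the miR-137 libraries 253 and 256 CPM (−0.27 ± 0.13, adjusted p = 0.0854). In U251 PABP-bound RNA the miR-137 libraries, at 93.4 and 89.4 CPM, lay between the 2 controls at 39.8 and 115 CPM (0.24 ± 0.54, adjusted p = 0.84). Without the first of these controls the change was −0.33 and without the second 1.29. MDM4, which binds p53 without degrading it, passed in no experiment. With the 8 U343 libraries fitted jointly its total RNA passed (adjusted p = 0.0336), and without the second miR-137 library its change there was −0.41. Without the second control library of U251 PABP-bound RNA its change was 0.98. Its log2 fold changes were −0.02 ± 0.13 in U251 total RNA, 0.42 ± 0.35 in U251 PABP-bound RNA, −0.31 ± 0.11 in U343 total RNA and 0.10 ± 0.08 in U343 PABP-bound RNA, with adjusted p between 0.112 and 0.92.

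CDKN1A encodes p21, the inhibitor of cyclin-dependent kinases that carries much of p53-dependent arrest (hg18 chr6:36754437-36763087). It rose 1.75-fold in U343 PABP-bound RNA, from 212 and 214 CPM to 425 and 320.4 CPM (0.81 ± 0.14, edgeR adjusted p = 0.00179). Both miR-137 libraries were above both controls, and with the 8 U343 libraries fitted jointly the adjusted p was 0.0992. In total RNA of U343 the controls held 417 and 251.3 CPM and the miR-137 libraries 702 and 365 CPM, so the lower miR-137 library lay below the higher control (0.67 ± 0.41, adjusted p = 0.298). Without the second miR-137 library the change in total RNA was 1.07, and without the first, whose interferon genes were at control level, it was 0.12. BTG2, an antiproliferative cofactor of mRNA deadenylation (hg18 chr1:201541287-201545352), passed in no experiment. Its largest difference was in U251 PABP-bound RNA, where the controls held 8.36 and 6.87 CPM and the miR-137 libraries 2.60 and 3.38 CPM (−1.34 ± 0.28, adjusted p = 0.112). The groups were apart there, DESeq2 gave an adjusted p of 0.0403, and without the first or second control library the change was −1.20 or −1.39. In U343 total RNA its change was −0.70 without the first miR-137 library and 0.40 without the second, neither past the threshold. In U251 total RNA it stood at 7.28 and 6.30 against 6.05 and 6.39 CPM, and in U343 PABP-bound RNA at 12.4 and 9.39 against 12.3 and 10.6 CPM.

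**Figure D2:**
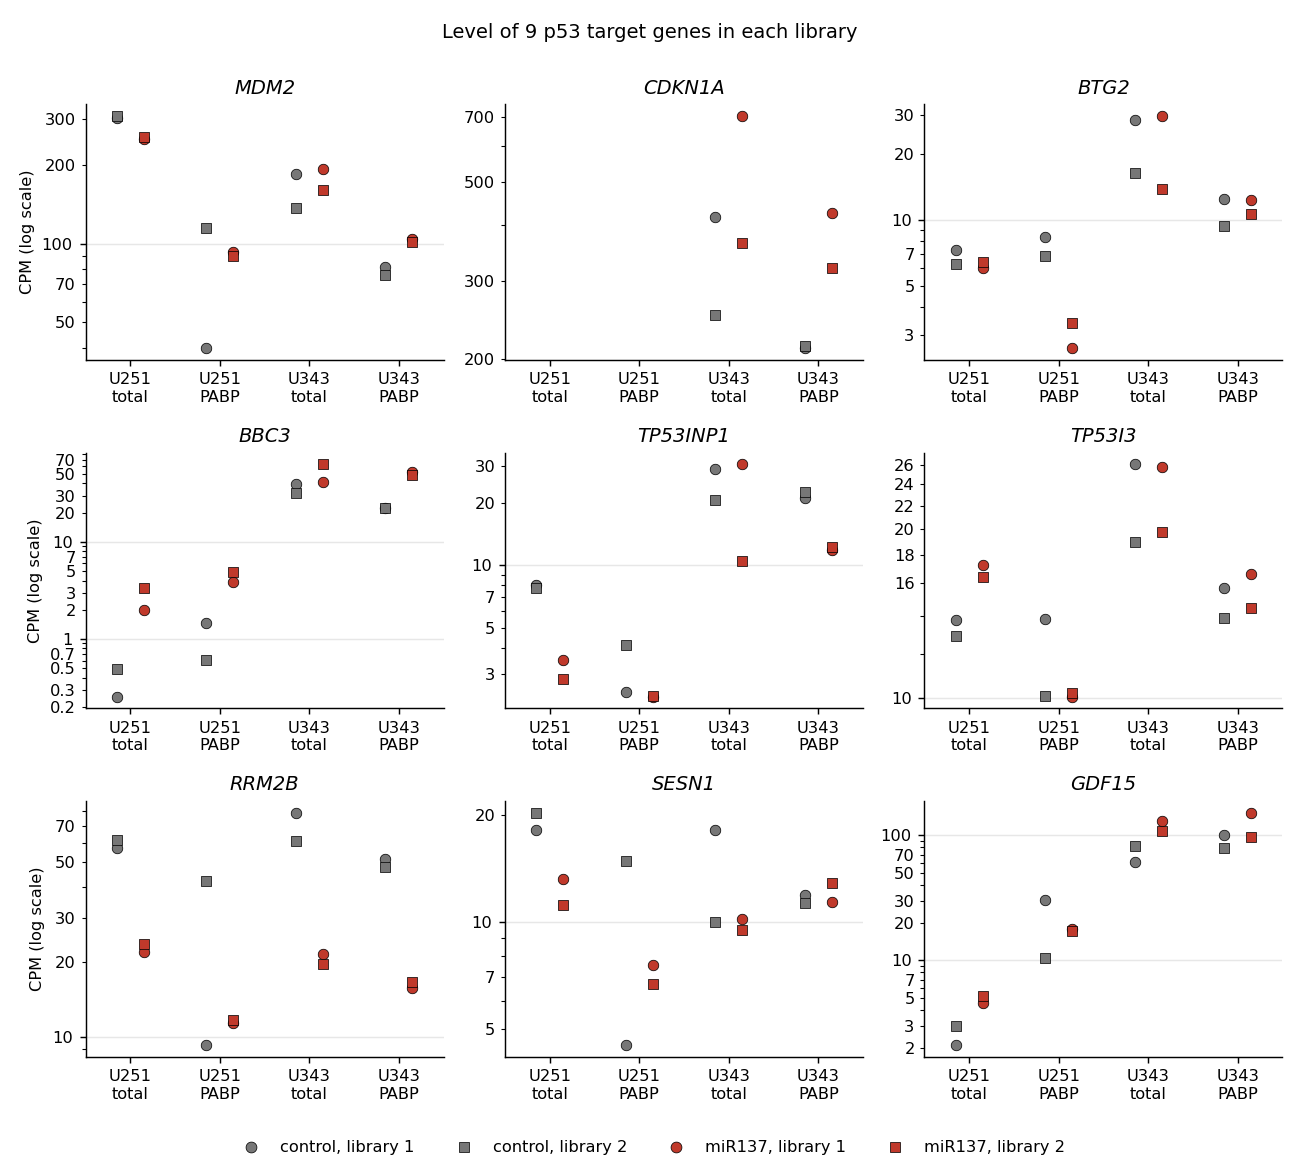
Level of each of the 9 p53 targets (vertical axis, CPM on a log scale that differs between panels) in every library of the 4 experiments, with control libraries in grey and miR-137 libraries in red, and circles and squares for libraries 1 and 2. BBC3 and RRM2B show separate groups in U251 total RNA and U343 PABP-bound RNA, and libraries 1 and 2 of U343 total RNA stand apart for CDKN1A, BTG2 and TP53INP1 in both groups.

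Of the apoptosis genes, BBC3 rose and TP53INP1 fell. BBC3 encodes PUMA, a BH3-only activator of mitochondrial apoptosis (hg18 chr19:52415919-52427863). For U343 PABP-bound RNA, it rose 2.25-fold, from 22.5 and 22.5 CPM to 52.0 and 49.2 CPM (1.17 ± 0.08, edgeR adjusted p = 2.59e-05). In U251 total RNA it rose 7.01-fold, but from a very low level, 4 and 8 reads in the controls (0.256 and 0.489 CPM) and 22 and 38 reads with miR-137 (1.99 and 3.37 CPM; 2.81 ± 0.45, adjusted p = 0.000136). Both controls lay below the minimum of 0.737 CPM that the filter on low counts set there, so BBC3 entered this test only through the miR-137 libraries, the only target and experiment where this was so. Without that filter the change was 2.76 (adjusted p = 0.00996). Summed over libraries the ratio of CPM was 7.16, with an exact 95% interval of 3.81 to 14.6 that covers counting error only. For U251 PABP-bound RNA, the controls held 1.46 and 0.609 CPM and the miR-137 libraries 3.83 and 4.89 CPM, without overlap (2.09 ± 0.49, adjusted p = 0.129). DESeq2 called this difference (adjusted p = 0.00816), and without the first or second control library it was 2.83 or 1.67. In U343 total RNA the levels were 39.2 and 32.2 against 41.4 and 62.8 CPM (0.54 ± 0.24, adjusted p = 0.179), and without the first miR-137 library the change was 0.80.

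TP53INP1, a nuclear protein that promotes p53-dependent death and also takes part in autophagy (hg18 chr8:96007377-96030791), fell 2.48-fold in U251 total RNA. Its controls held 8.05 and 7.77 CPM and its miR-137 libraries 3.52 and 2.84 CPM (−1.31 ± 0.22, edgeR adjusted p = 0.000219). In PABP-bound RNA of U343 it fell 1.82-fold, from 21.2 and 22.5 to 11.8 and 12.2 CPM (−0.86 ± 0.10, adjusted p = 0.000214; 0.141 with the 8 U343 libraries fitted jointly). For U343 total RNA, the miR-137 libraries were on both sides of the controls, at 30.6 and 10.5 CPM against 29.2 and 20.5 CPM (−0.28 ± 0.54, adjusted p = 0.751). Without the first of them the change was −1.26, and without the second 0.30. In PABP-bound RNA of U251 the levels were 2.45 and 4.12 against 2.34 and 2.35 CPM (−0.49 ± 0.35, adjusted p = 0.507). TP53I3, the quinone oxidoreductase PIG3 (hg18 chr2:24153809-24161232), passed in no experiment, with log2 fold changes from −0.24 to 0.33 and adjusted p from 0.0803 to 0.968. Its nearest approach was in U251 total RNA, at 13.8 and 12.9 against 17.2 and 16.4 CPM, which upper-quartile normalization called (adjusted p = 0.0196).

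RRM2B fell in both lines. It encodes p53R2, the p53-inducible small subunit of ribonucleotide reductase that supplies deoxynucleotides for repair and for mitochondrial DNA (hg18 chr8:103285907-103320522). In U251 total RNA it fell 2.61-fold, from 57.0 and 61.5 CPM to 21.9 and 23.5 CPM (−1.38 ± 0.14, edgeR adjusted p = 2.22e-06; 0.116 with the 8 U251 libraries fitted jointly). In total RNA of U343 it fell 3.39-fold, from 78.8 and 60.6 CPM to 21.5 and 19.7 CPM (−1.76 ± 0.16, adjusted p = 0.00856). In U343 PABP-bound RNA it fell 3.06-fold, from 51.7 and 47.7 CPM to 15.8 and 16.7 CPM (−1.62 ± 0.09, adjusted p = 9.88e-06). In these 3 experiments the highest miR-137 library lay below the lowest control. The fall in U343 total RNA was −1.83 without the first miR-137 library and −1.70 without the second. Without either control library the change was −1.55 or −1.94, the adjusted p was 0.151 or 0.17, and no gene of the table passed. In U251 PABP-bound RNA the miR-137 libraries, at 11.4 and 11.7 CPM, lay between the controls at 9.31 and 42.0 CPM (−1.15 ± 0.73, adjusted p = 0.45). Leaving out the first or second control turned the direction there, from −1.86 to 0.40.

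SESN1, a stress sensor that restrains mTORC1 and has antioxidant functions (hg18 chr6:109414338-109521970), fell 1.57-fold in U251 total RNA, from 18.1 and 20.2 to 13.2 and 11.2 CPM (−0.65 ± 0.16, edgeR adjusted p = 0.00376; 0.346 with the 8 U251 libraries fitted jointly). In U343 it stood at 18.2 and 9.98 against 10.2 and 9.48 CPM in total RNA (−0.52 ± 0.31, adjusted p = 0.3) and at 11.9 and 11.3 against 11.4 and 12.8 CPM in PABP-bound RNA (0.06 ± 0.11, adjusted p = 0.656). In U251 PABP-bound RNA its change was −1.07 without the first control library and 0.75 without the second. GDF15, a secreted stress cytokine that ATF4 as well as p53 can induce (hg18 chr19:18357968-18360986), rose 1.90-fold in U251 total RNA, from 2.11 and 3.00 to 4.60 and 5.15 CPM (0.93 ± 0.26, adjusted p = 0.00732). That call was lost with DESeq2 (adjusted p = 0.0504), with a joint fit (0.228) and without the first control library (0.0667). In U343 total RNA GDF15 stood at 61.2 and 81.5 against 129.7 and 107 CPM (0.73 ± 0.19, adjusted p = 0.0621), with both miR-137 libraries above both controls, and DESeq2 gave 0.0048. Without the first or the second miR-137 library the change was 0.58 or 0.86. For U343 PABP-bound RNA, the groups overlapped, at 101 and 78.3 against 151 and 97.1 CPM (0.47 ± 0.20, adjusted p = 0.0861). For U251 PABP-bound RNA, the miR-137 libraries, at 17.8 and 17.1 CPM, lay between the controls at 30.3 and 10.3 CPM, and the direction depended on which control was left out (0.75 or −0.71).

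The response of BBC3 in total RNA differed between the lines, and that of the other targets did not pass. BBC3 rose by 2.29 ± 0.56 log2 units less in U343 than in U251 (edgeR interaction, log2 difference −2.29, adjusted p = 0.0204), 1 of 8 targets, where 25.2% of all genes passed. This call rests on few reads in U251. In the test of the U251 libraries alone BBC3 passed the filter only through the miR-137 libraries. The interaction call was lost without either U251 control, without the second U251 miR-137 library or without the first U343 control. For RRM2B the line difference was −0.38 (95% interval −0.86 to 0.09) and for MDM2 0.40 (−0.13 to 0.93). For TP53INP1 it was 1.03 (−0.48 to 2.54). In PABP-bound RNA, where 3.28% of genes passed, none of the 8 targets did with edgeR, 1 was at an unadjusted p under 0.05, and DESeq2 called 1. The target nearest the threshold was BTG2, with a difference of 1.47 ± 0.35 (adjusted p = 0.0705). Without the first or second U251 control library the difference was 0.75 or −0.80 for MDM2 and 0.27 or −1.91 for RRM2B.

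No target responded differently in PABP-bound and in total RNA beyond the threshold. In U251, where 0.134% of all genes passed this interaction, 1 of the 8 targets was at an unadjusted p under 0.05 (BTG2, −1.27 ± 0.33, edgeR adjusted p = 0.131). Of the calls there 78.9% were higher, or 66.7% with upper-quartile normalization. In U343, where 0.00649% passed, 0 of 9 were, and DESeq2 called 0 in either line. Some targets passed when a single library was left out. Such a fit leaves 1 library in its group, and no share of all genes is given for it. For CDKN1A in U343 the rise in PABP-bound RNA exceeded that in total RNA by 0.14, with a 95% interval of −0.999 to 1.27. For RRM2B the difference was 0.15 (−0.30 to 0.59), and for BBC3 it was 0.63 (−0.03 to 1.28; adjusted p = 0.303). The interval of CDKN1A reaches beyond the size of its rise in PABP-bound RNA, so such a difference was not detectable with these libraries.

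In U343 total RNA, p53 targets differed between libraries of the same group. The first library was above the second for 8 of 9 targets in the controls and for 8 of 9 with miR-137, and for 7 in both groups. Over 13190 genes the first library was higher for 50.7% in the controls, for 54.2% with miR-137 and for 29.5% in both. The median difference of the 9 targets between library 1 and library 2 was 0.46 log2 units in the controls and 0.28 with miR-137. CDKN1A differed by 0.73 and 0.94, BTG2 by 0.79 and 1.10 and TP53INP1 by 0.51 and 1.54. Of 36 further p53 targets, 30 were higher in the first control library and 22 in the first miR-137 library, with medians of 0.19 and 0.21. Among them ZMAT3, which encodes a p53-induced RNA-binding protein, differed by 0.61 and 1.47, and FDXR, a mitochondrial reductase, by 0.49 and 0.89 (both named after their values were seen). The 16 genes repressed through p21 showed no such shift, with medians of 0.00 and −0.08. The 12 interferon genes had a median library difference of 0.00 in the control group. With miR-137 it was −6.19, and 0 of 12 were higher in the first library. The part of this library difference in the results for U343 total RNA was not tested beyond leaving out each library in turn.

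**Figure D3:**
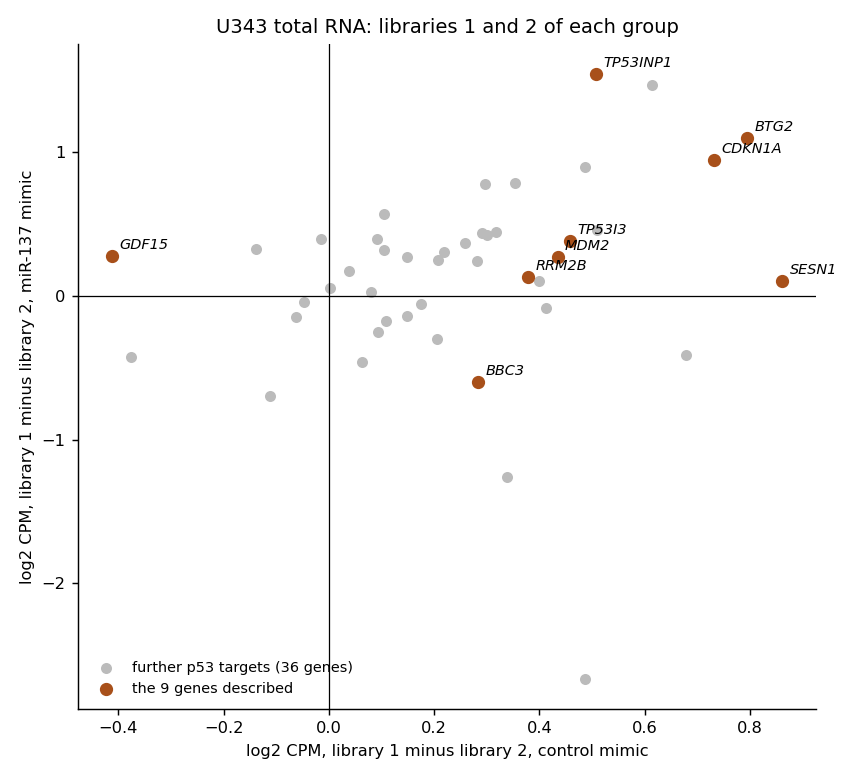
Difference in log2 CPM between library 1 and library 2 of U343 total RNA, in the control group (horizontal axis) and in the miR-137 group (vertical axis), for the 9 p53 targets (brown) and 36 further p53 targets (grey). Points above and to the right of 0 are genes higher in library 1 of both groups, among them 7 of the 9 targets, and GDF15 and BBC3 are the exceptions.

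PABP-bound and total RNA of the control libraries were also compared with each other. In U343, 5 of 9 targets were lower in PABP-bound RNA and 0 higher, where 48.6% of all genes passed and 24.2% were lower. The number of targets that passed was near the background. MDM2 was 1.91-fold lower (−0.93 ± 0.14, edgeR adjusted p = 0.00127), BTG2 1.90-fold (−0.93 ± 0.25, adjusted p = 0.0187) and BBC3 1.48-fold (−0.56 ± 0.11, adjusted p = 0.00429). The log2 differences were −0.50 for TP53I3 (adjusted p = 0.0315) and −0.38 for RRM2B (adjusted p = 0.0375). The calls of BTG2, TP53I3 and RRM2B were lost when single control libraries of either assay were left out. Leaving out each library gave −1.26 to −0.47 for BTG2, −0.70 to −0.25 for TP53I3 and −0.555 to −0.18 for RRM2B. The call of BTG2 was also lost with DESeq2 (adjusted p = 0.0734). MDM4 was 1.80-fold lower in PABP-bound RNA (−0.85 ± 0.07, adjusted p = 0.000122). In U251, where 14.0% of genes passed, GDF15 was the only target of 8 past the threshold, 8.92-fold higher in PABP-bound RNA (3.16 ± 0.60, adjusted p = 0.0302; 0.0757 without the first total RNA control library). Without the first or second PABP-bound control library the difference of GDF15 was 2.13 or 3.67. The total RNA controls of GDF15 had 33 and 49 reads. The difference was not particular to GDF15. Of the ATF4 pathway list described below, 9 of 9 genes tested were higher in PABP-bound RNA of U251 (log2 differences 1.51 to 3.67), as were 7.87% of all genes. In U343, 4 of 9 genes of that list were higher and 3 lower, where 24.4% of all genes were higher and 24.2% lower. MDM2 in U251 differed by −1.86 ± 0.51 (adjusted p = 0.0573). MDM4 was lower in PABP-bound RNA of U251 as well (−1.54, edgeR adjusted p = 0.045), and that call was lost without the filter on low counts (0.136). Without the first or second PABP-bound control library the difference of MDM4 was −1.20 or −2.04.

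Between the total RNA controls of the lines, 5 of 8 targets were higher in U343 and 1 was lower. Of all genes 84.8% passed, 44.9% being higher in U343, so the number of targets that passed was not above the background. BBC3 stood at 35.2 CPM in U343 and 0.353 CPM in U251, a 97.9-fold difference (6.61 ± 0.25, edgeR adjusted p = 3.89e-08). Its U251 level rests on 4 and 8 reads, so the size of this difference is poorly determined. The U343 libraries alone sufficed to bring BBC3 past the filter on low counts. Without the first or second U251 control library the difference was 6.21 or 7.15. GDF15 was 28.9-fold higher (4.85 ± 0.21), BTG2 3.42-fold (1.77 ± 0.26), TP53INP1 3.27-fold (1.71 ± 0.19) and TP53I3 1.75-fold (0.81 ± 0.17). MDM2 was 1.83-fold lower in U343 (−0.87 ± 0.14, adjusted p = 0.000272). SESN1 and RRM2B did not pass, at −0.39 ± 0.25 and 0.29 ± 0.13. Cell line and library kit cannot be told apart here.

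**Figure D4:**
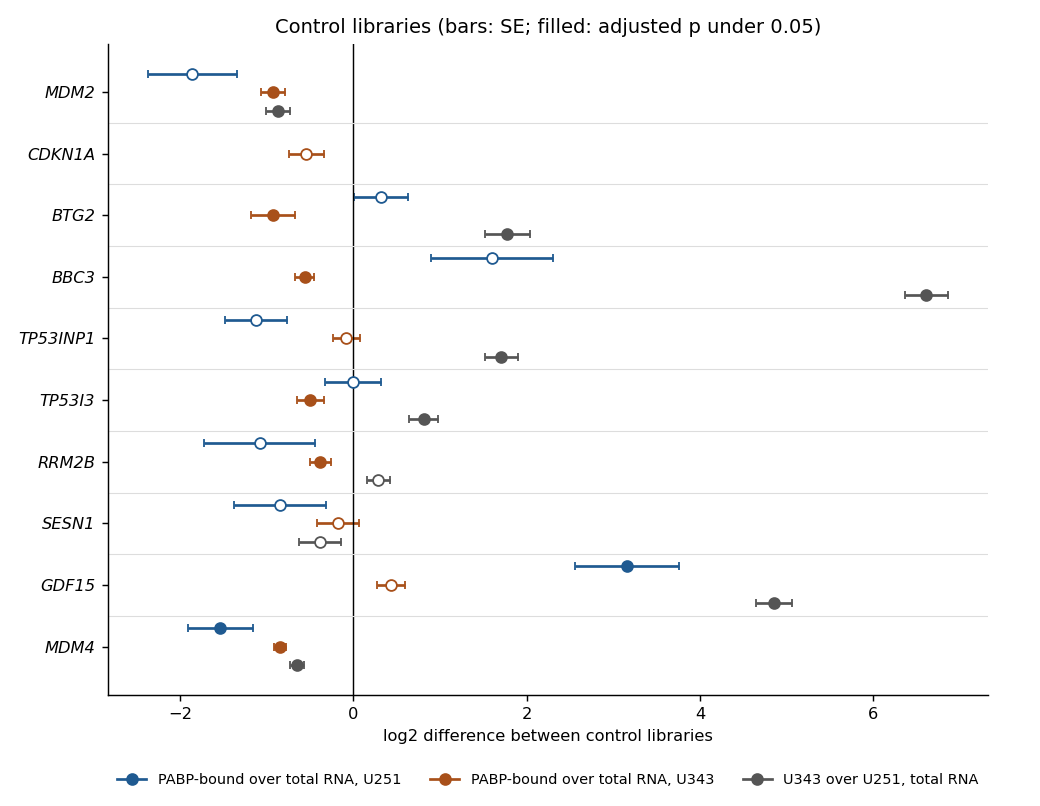
Log2 differences between control libraries (horizontal axis) for the 9 p53 targets and MDM4: PABP-bound over total RNA in U251 and in U343, and U343 over U251 in total RNA, with standard errors as bars and filled points for an adjusted p under 0.05 in edgeR. BBC3 and GDF15 have the largest differences between the lines, at 6.61 and 4.85, and in U343 most targets lie left of 0 for PABP-bound over total RNA.

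A wider list of 43 p53 targets had members called in both directions in 3 of the 4 experiments. In U251 total RNA 11 rose and 13 fell of 36 tested (median −0.05), and in U343 PABP-bound RNA 15 rose and 10 fell of 38 (median 0.03). For U343 total RNA, 5 rose and 5 fell of 38 (median −0.09), and in U251 PABP-bound RNA 2 rose and 0 fell of 39 (median 0.05). Over all genes, 28.7% rose and 29.0% fell in U251 total RNA, 28.5% and 27.8% in U343 PABP-bound RNA, 8.31% and 11.7% in U343 total RNA, and 0.944% and 0.263% in U251 PABP-bound RNA. The count in U251 total RNA was 11 with the 8 U251 libraries fitted jointly. In U343 total RNA 0 passed without either control library. Other counts with 1 library left out changed with the library, and no share of all genes stands beside them. TRIM22, an antiviral ubiquitin ligase that interferon also induces, rose 13.5-fold in U251 total RNA and 8.14-fold in U343 PABP-bound RNA (adjusted p = 2.72e-10 and 2.09e-06), beside the rise of the interferon genes, of which 12 and 11 of 12 rose there. Its rise in U251 PABP-bound RNA was 30.8-fold (adjusted p = 0.034). The call in U251 PABP-bound RNA was lost without the filter on low counts (0.0771).

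CCNG1, which encodes cyclin G1, fell 5.10-fold in U251 total RNA, from 372 ± 26.1 to 73.0 ± 13.1 CPM (SD, n = 2, edgeR adjusted p = 4.95e-08), and PLK2, a polo-like kinase, fell 3.94-fold (adjusted p = 1.25e-07). PCNA, the sliding clamp of DNA replication, fell 2.65-fold in U343 total RNA (adjusted p = 0.0146). DRAM1, a lysosomal regulator of autophagy, rose 2.26-fold there (adjusted p = 0.019). PLK3, a stress-responsive polo-like kinase, rose 2.94-fold in U343 PABP-bound RNA (adjusted p = 3.83e-05). The calls in U343 total RNA were lost without either control library, when no gene passed.

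Genes that p53 represses through p21 and the DREAM complex moved in a single direction in U343. All 16 tested fell in U343 total RNA (median −1.38) and all 16 in U343 PABP-bound RNA (median −1.50), where 11.7% and 27.8% of all genes fell and the medians of all genes were 0.02 and 0.00. AURKA, the mitotic kinase Aurora A, fell 4.58-fold in total RNA (107 ± 4.60 to 23.4 ± 1.11 CPM, SD, n = 2, edgeR adjusted p = 0.00647) and 5.13-fold in PABP-bound RNA (adjusted p = 1.18e-06). CDK1, the mitotic cyclin-dependent kinase, fell 3.25-fold in total RNA (adjusted p = 0.00647) and PLK1 3.97-fold in PABP-bound RNA (adjusted p = 4.23e-06). In U251 total RNA 9 of 16 fell and none rose (median −0.41), where 29.0% of all genes fell, led by the transcription factor MYBL2 at 3.94-fold (adjusted p = 5.29e-08) and the replicative helicase subunit MCM5 at 2.04-fold (adjusted p = 1.68e-05). The U251 count was 2 with the 8 U251 libraries fitted jointly, and it was also lower without the second control library. In U343 total RNA, 0 passed without either control library, when no gene of the table did. In PABP-bound RNA of U251 0 of 16 passed with edgeR (median −0.56), 5 were lower at an unadjusted p under 0.05, and DESeq2 called 1. The directions there depended on which control library was left out. These genes also serve proliferation in general, and their dependence on p53 was not tested.

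**Figure D5:**
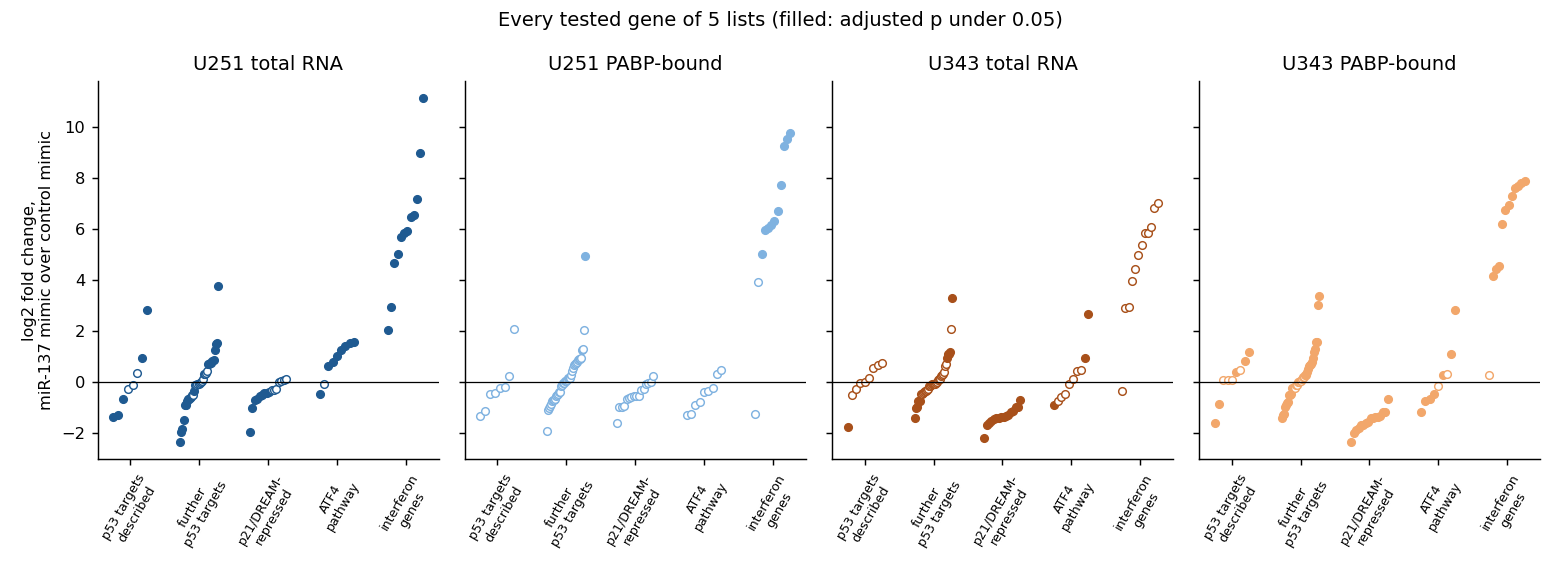
Log2 fold change of miR-137 over control libraries (vertical axis) for every tested gene of 5 lists in the 4 experiments, ordered by value within each list, with filled points for an adjusted p under 0.05 in edgeR. The p53 targets lie on both sides of 0 in each experiment, the genes repressed through p21 and DREAM lie below 0 in both U343 experiments, and most interferon genes lie above the other lists.

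A list of paralogs of the targets, to which RRM1 was added as the partner subunit of RRM2B, was set beside them. So was the ATF4 pathway, which shares GDF15 and SESN2 with p53. RRM1 and RRM2, the large subunit and the cell-cycle-bound small subunit of ribonucleotide reductase, fell in U343 total RNA together with RRM2B, 2.87-fold and 2.79-fold (edgeR adjusted p = 0.00647 and 0.00711), and RRM1 fell 3.21-fold in U343 PABP-bound RNA (adjusted p = 6.41e-06). Without the first miR-137 library of U343 total RNA the changes of RRM1 and RRM2 were −1.58 and −1.40, and without either control library both calls were lost. SESN3 fell 3.21-fold in U251 total RNA (adjusted p = 5.59e-07), whereas SESN2 rose 2.88-fold (adjusted p = 9.88e-07). TP53INP2, an autophagy protein, fell 3.85-fold in U343 PABP-bound RNA (adjusted p = 4.23e-06). Of the 10 genes in the list of paralogs with RRM1, 3 rose and 5 fell in U251 total RNA and 1 and 4 in U343 total RNA. In U343 PABP-bound RNA it was 3 and 5. Of all genes 57.7%, 20.0% and 56.3% passed in either direction in these experiments. In U251 PABP-bound RNA 0 passed with edgeR and 2 were higher at an unadjusted p under 0.05.

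Of the ATF4 pathway, 7 genes rose and 1 fell of 9 in U251 total RNA, 2 rose and 1 fell of 10 in U343 total RNA, and 3 rose and 4 fell of 9 in U343 PABP-bound RNA. The shares of all genes that rose were 28.7%, 8.31% and 28.5%, and of those that fell 29.0%, 11.7% and 27.8%. For U251 PABP-bound RNA, 0 of 9 passed with edgeR, 2 were lower at an unadjusted p under 0.05, and DESeq2 called 2. PPP1R15A, the GADD34 subunit that restarts translation after stress, rose 2.99-fold in U251 total RNA and 1.91-fold in U343 total RNA (adjusted p = 2.96e-06 and 0.0412). The stress-induced factor ATF3 rose 6.31-fold in U343 total RNA and 7.15-fold in U343 PABP-bound RNA (adjusted p = 0.0177 and 1.72e-06). The log2 change of ATF3 in U343 total RNA was 3.08 without the first miR-137 library and 2.04 without the second, and that of PPP1R15A was 1.15 and 0.67. Without either control library both calls were lost, that of ATF3 at 0.196 and 0.205. ASNS, asparagine synthetase, fell 2.29-fold in U343 PABP-bound RNA (adjusted p = 5.3e-05). Of 12 regulators of p53 tested in total RNA of each line, 3 rose and 5 fell in U251, and 0 rose and 2 fell in U343. Over all genes 28.7% rose and 29.0% fell in U251, and 8.31% and 11.7% in U343. The 2 that fell in U343 also fell in U251. CHEK1, a checkpoint kinase, fell 1.37-fold in U251 and 1.71-fold in U343 (adjusted p = 0.00661 and 0.0203), and TP73, a p53 relative present at 5.18 and 5.20 CPM in the controls, fell 1.75-fold and 2.58-fold (adjusted p = 0.00979 and 0.0144). In U251 the call of CHEK1 was lost with a joint fit (0.346) and without the second control library (0.0537), and that of TP73 with DESeq2 (0.0727) and without the second control library (0.0621). Both U343 calls were lost without either control library.

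The genes most like MDM2 over the 4 log2 fold changes were MKI67IP, GEMIN5 and PPP3CC, with root-mean-square differences of 0.0414, 0.0544 and 0.0559 among 7877 genes. The changes of MDM2 were small, so near matches are easily found. Its value in U251 PABP-bound RNA was −0.33 or 1.29 without the first or second control library. The genes most like CDKN1A over its 2 U343 experiments were TOLLIP, LZTR1 and PVRL3, with differences of 0.0090, 0.0105 and 0.0108 among 9327 genes, and with 2 values a near match is easily found. The study selected genes by Fisher's exact tests of reads in each of the 4 control and miR-137 pairings, taking those below an adjusted p of 0.001 whose odds ratio for a decrease exceeded 2 every time. This rule does not use the spread between libraries. It took RRM2B in U251 total RNA, in U343 total RNA and in U343 PABP-bound RNA and no other target, where it took 2.21%, 2.88% and 3.40% of all genes, and in U251 PABP-bound RNA it took none of the targets and 1.49% of all genes. The same rule was also applied here to increases, which the study did not do. It then took BBC3 as higher in U251 total RNA, U251 PABP-bound RNA and U343 PABP-bound RNA. In either direction it took 8.35% of all genes in U251 total RNA, 4.95% in U251 PABP-bound RNA, 4.39% in U343 total RNA and 8.24% in U343 PABP-bound RNA.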

How the data were processed

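Total RNA and PABP-bound RNA of U251 and U343 cells transfected with miR-137 or control mimic were sequenced in 16 libraries, 2 per group. The authors aligned reads to hg18 with RMAP (version not given in the sources used here) and deposited raw read counts per gene, with the isoforms of each RefSeq gene merged into 1 super-transcript. Totals were 10156675 to 18224061 reads in U251 total RNA, 22359794 to 30731476 in U251 PABP-bound RNA, 37952273 to 45134766 in U343 total RNA and 37736206 to 45055184 in U343 PABP-bound RNA. A symbol on 2 lines in U251 was used once (the first line).

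Counts of all genes were fitted per comparison in edgeR 4.0.16 (R 4.3.3) with filterByExpr, TMM normalization, the quasi-likelihood F test and Benjamini-Hochberg adjustment over all genes tested, at 0.05. Intervals are 95% with the degrees of freedom of that test. CPM values of the targets and lists were scaled with TMM factors within each comparison, so a group mean can differ slightly between comparisons, and those of cell type markers by total reads. The fits were tested on simulated data. Alternatives were DESeq2 1.42.0, upper-quartile normalization, no filter, a mean of at least 50 reads, a replicate block, a joint fit per cell line, the selection rule of the study (which takes decreases, applied here in either direction) and leaving out each library. Apart from the rule of the study, the shares of all genes past the threshold belong to the main edgeR fit, and none is given for the alternatives. The named list genes are, per experiment, the 3 largest changes among further p53 targets and the 2 largest in the other lists, past the threshold, apart in all 4 pairings and with at least 50 reads on average, plus regulators past the threshold in total RNA of both lines; some genes this rule names are not reported here. The members and lists were chosen with earlier results of these data known.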

Additional observations from a re-analysis of the deposited data

Results flagged for a closer look

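The response of BBC3 in total RNA differed between the lines by the test of the interaction itself. The U343 response minus the U251 response was −2.29 log2 units, the rise being smaller in U343 (edgeR adjusted p = 0.0204), with 12 control reads in all in U251, and the call was lost without any of 4 single libraries. The lines differ in library kit as well, and line and kit cannot be told apart.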

How the results depend on the processing

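Under the alternatives, 84 counts of called targets stayed within 1.5 times the reported count and 38 did not. With DESeq2 the count was 2 in U251 PABP-bound RNA, 2 in U343 total RNA, 1 in the line interaction of PABP-bound RNA and 2 in PABP-bound against total RNA of U251 controls. With a joint fit per line it was 2 in U251 total RNA, 2 in U251 PABP-bound RNA and 2 in U343 PABP-bound RNA. With the rule of the study, applied here in either direction, it was 2, 1 and 2 in the same order. For PABP-bound against total RNA of U251 controls it was 2 with upper-quartile normalization and 0 without the filter. Leaving out each library gave counts from 0 to 7 in U251 PABP-bound RNA, 0 to 4 in U343 total RNA, 0 to 2 and 0 to 7 in the line interactions of total and PABP-bound RNA, 0 to 7 and 0 to 2 in the assay interactions of U251 and U343, and 0 to 6 and 2 to 8 for PABP-bound against total RNA in U251 and U343 controls. The cause was not tested. A library left alone in its group was assumed to vary like the other group. The counts from leaving out libraries therefore say little, and no share of all genes is set beside them.

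With the replicate number as a block, the count was 1 in U251 PABP-bound RNA, 2 in U343 total RNA and 4 in PABP-bound against total RNA of U251 controls. The block brought BBC3 past the threshold in U251 PABP-bound RNA (adjusted p = 0.00258), CDKN1A in U343 total RNA (0.0374) and GDF15 in U343 PABP-bound RNA (6.07e-07). The labels do not say that a number marks a shared culture or day, and with 2 pairs in each experiment the data could not settle it (correlations of the deviations of same-numbered libraries 0.04 and −0.09 in U251 total and PABP-bound RNA, 0.14 and 0.41 in U343).

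Directions that turned belong to changes that had not passed the threshold. Under upper-quartile normalization BTG2 came to 0.0131 in U251 and 0.0010 in U343 total RNA and MDM4 to 0.12 in U251 total RNA, and MDM4 came to 0.0565 with a mean of 50 reads and to 0.0011 in the joint fit. TP53I3 in U343 total RNA came to −0.0034 without the filter and −0.0022 in the joint fit. Leaving out each library in U251 PABP-bound RNA gave −0.33 to 1.29 for MDM2, −0.71 to 0.75 for GDF15, −1.07 to 0.75 for SESN1, −0.81 to 0.0298 for TP53INP1, −1.86 to 0.40 for RRM2B and −0.36 to 0.0046 for TP53I3. The ranges were −0.0898 to 0.0574 for MDM4 in U251 total RNA, −0.0609 to 0.38 for MDM2, −1.26 to 0.30 for TP53INP1, −0.70 to 0.42 for BTG2 and −0.20 to 0.27 for TP53I3 in U343 total RNA, and −0.028 to 0.15 for SESN1, −0.13 to 0.28 for BTG2 and −0.0374 to 0.16 for TP53I3 in U343 PABP-bound RNA. For the line interaction they were −0.48 to 0.0406 for GDF15, −0.24 to 0.69 for SESN1 and −0.58 to 0.60 for BTG2 in total RNA. In PABP-bound RNA they were −0.80 to 0.75 for MDM2, −0.26 to 1.28 for GDF15, −0.58 to 1.16 for SESN1, −1.91 to 0.27 for RRM2B and −0.77 to 0.0663 for MDM4. With 2 libraries per group, BBC3 at 12 control reads and GDF15 at 33 and 49 control reads in U251 total RNA are the values least supported by depth.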
